A study of Callithrix jacchus with 4 samples.

Results

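Myelin is the lipid-rich membrane that oligodendrocytes wrap around axons, and its transcripts mark these cells in cortex. *MBP* (myelin basic protein) compacts the cytoplasmic faces of the sheath, and *MOBP* (myelin-associated oligodendrocyte basic protein) is a further basic protein of the compact sheath. *MYRF* (myelin regulatory factor) is the membrane-tethered transcription factor that switches on and maintains the myelin gene programme as oligodendrocyte precursor cells (OPC) differentiate. *MOG* and *MAG*, glycoproteins of the outer and the inner face of the sheath, were also sought. The genes were chosen by name, and 3 of the 5 (*MBP*, *MOBP* and *MYRF*) were found among the 16383 genes listed for both cohorts. *MOG* and *MAG* are not listed in either table, by symbol or by Ensembl identifier, and were not analysed here.

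Nuclei came from the primary visual cortex (V1) of adult marmosets and were profiled by droplet-based single-nuclei RNA sequencing (snRNAseq). The injured cohort consisted of 3 animals, each with its own library, whose V1 gray matter, with lesion core and penumbra, was taken 7 days after injection of endothelin-1 (ET-1), a vasoconstrictor peptide. The control cohort consisted of 3 uninjured animals whose nuclei shared 1 library, and the variation among control animals is therefore unknown. Associated white matter was dissected away in both cohorts, so the oligodendrocytes (Oligo) described here are those of gray matter. Protocols for isolating nuclei, sequencing facilities, instruments and doublet removal also differed between cohorts, and their effects cannot be told apart from that of the injury.

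The libraries held 7500, 12527 and 9510 nuclei in injured replicates 1, 2 and 3 (the numbers only name the animals) and 8610 in the control library. Oligo numbered 710, 1070 and 682 nuclei in injured animals, against 1122 in the control library. OPC numbered 284, 451 and 401 against 171. Control nuclei were shallower, with a median of 900 UMIs (unique molecular identifiers, the tags of captured transcripts) per Oligo nucleus against 1950 to 3064 in the injured animals, and of 962 UMIs per OPC nucleus against 2912 to 5628. Library pairs shared 15 to 27 cell barcodes, at most 0.302% of the smaller library. The cell type labels are those of the authors, who used *MBP* and *MOBP* among the markers of Oligo. All 5 Oligo markers were highest in Oligo, and all 3 OPC markers in OPC, in both cohorts. High levels of these genes in Oligo are therefore no finding.

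Oligo were further checked by cluster, because a small set of control nuclei stood apart. In the control library, 68 Oligo nuclei (6.06%) formed a cluster of their own with a median of 3170 UMIs, against 871.5 in the large cluster of 1054 nuclei. This small cluster held 19.5% of all control Oligo UMIs. The 6 markers of excitatory neurons (ExN) summed to 5924 CPM (counts per megacount, the UMIs of a gene scaled to a common total) in it and to 719 CPM in the large cluster. *MBP* stood at 1523 CPM in the small and 5014 CPM in the large control cluster. Injured Oligo outside their largest cluster numbered 6, 31 and 66 nuclei, with ExN markers at 2425, 4327 and 2752 CPM. Comparisons in Oligo are given with all labelled nuclei. The fold changes of the members and the gene lists are also given with the largest cluster of each cohort alone. Shares of nuclei, counts per nucleus, ratios between genes, splits of nuclei and differences between cell types use all labelled nuclei only.

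The Oligo level of *MBP* was lower in every injured animal than in the control library. Summed over Oligo nuclei, it stood at 3079, 2475 and 3174 CPM in injured replicates 1, 2 and 3 and at 4332 CPM in the control library. The injured mean was 2909 ± 379 CPM (SD, n = 3). A control cohort of 1 library can lie outside the range of 3 animals without any difference between cohorts. The same limit holds for the other genes and cell types below. The fitted log2 fold change, injured over control, was -0.47 (SE 0.20, 95% interval -0.93 to -0.01), with an adjusted p of 0.154 in edgeR's quasi-likelihood test. It was not called. Genes were called when 10% or more of the nuclei of a cohort had a UMI, the fold change exceeded 0.25 on the natural log scale in either direction and the adjusted p (Benjamini-Hochberg) was under 0.01. With the largest Oligo cluster alone, a choice made after the data were seen, the log2 fold change of *MBP* was -0.78 (SE 0.18) and its adjusted p 0.0306, which also missed the limit for a call.

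*MOBP* had the opposite sign in Oligo. It stood at 1755, 1889 and 2952 CPM in injured replicates 1, 2 and 3 and at 1597 CPM in the control library. All 3 injured values were above the control value, but injured replicate 1 was near to it and the animals spread widely (2199 ± 656 CPM, SD, n = 3). The log2 fold change was 0.57 (SE 0.32, 95% interval -0.18 to 1.33), with an adjusted p of 0.267. Without injured replicate 3 it was 0.27, and with the largest cluster alone 0.26 (adjusted p = 0.568). In that cluster *MOBP* stood at 1755, 1924 and 2913 CPM against 1838 CPM, so that injured replicate 1 was below the control value and the groups overlapped.

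*MYRF* was measured at a much smaller number of UMIs than either structural gene, 422, 372 and 320 in injured and 268 in control Oligo. These counts corresponded to 185.3, 169.9 and 190.3 CPM in injured animals, with 209.8 CPM for control Oligo. Every injured value lay below the control value, by a margin small against the interval of the fold change. The log2 fold change was -0.10 (SE 0.17, 95% interval -0.49 to 0.29), with an adjusted p of 0.704. The interval leaves room for a change of either sign. With the largest cluster alone it was -0.39 (SE 0.17, adjusted p = 0.152). With nuclei thinned at random to 1000 UMIs, which left out 655 of the 1122 control Oligo nuclei, it was -0.01 (adjusted p = 0.988). At 500 UMIs, which left out none, no fold change was fitted. Nuclei then held a mean of 0.0807 *MYRF* UMIs in injured animals and 0.1185 in control Oligo. At 1000 UMIs these means were 0.1887 and 0.1991. The result at equal depth thus differed between the depths, which also kept different control nuclei. The part of each was not tested.

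Over the 3 genes, 0 were called in Oligo by edgeR, where 0.774% of the 11631 genes tested were called. At an unadjusted p below 0.05, 1 of the 3 (*MBP*) passed in edgeR and 0 in DESeq2, and DESeq2 also called 0. Of all genes, 30.8% passed this limit in edgeR and 16.6% in DESeq2, which called 1.75%. With all labelled nuclei a count of 1 in 3 is thus near the share of all genes in edgeR. With the largest Oligo cluster alone, *MBP* and *MYRF* passed it in edgeR, as did 3498 of 11313 genes. The count thus depends on the nuclei used, and nothing is read from it. Markers of other cell types differed between the Oligo sums, and their part in these results was not tested. The 6 ExN markers summed to 747, 1026 and 991 CPM in injured and 1736 CPM in control Oligo. In the largest clusters alone, for which fold changes are given above, they summed to 735, 846 and 821 CPM in injured and 719 CPM in control Oligo. The 5 markers of microglia summed to 373, 321 and 272 CPM in injured Oligo and 75.2 CPM in control Oligo, where 4 were listed. All ExN and all listed microglia markers had UMIs in every Oligo sum.

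**Figure D1:**
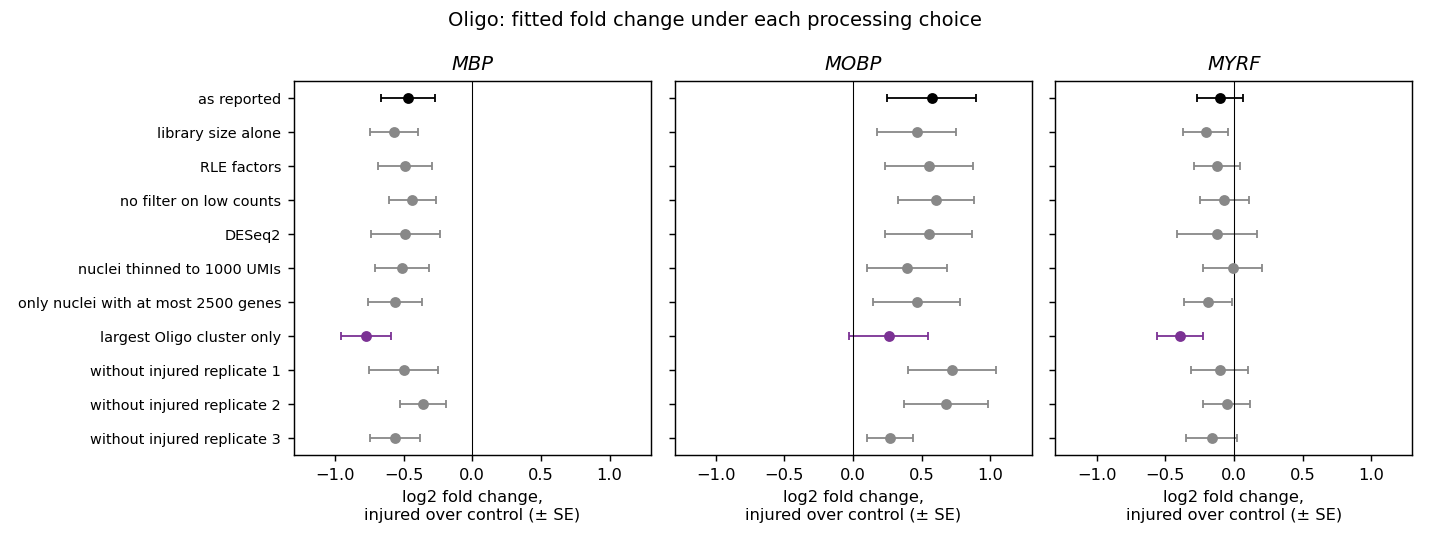
Fitted log2 fold change (injured over control, x axis, bars are ± SE) of *MBP*, *MOBP* and *MYRF* in Oligo under each processing choice (y axis). *MBP* and *MYRF* lie below 0 and *MOBP* above 0 throughout, and the purple points, from the largest Oligo cluster of each cohort alone, are shifted downward for all 3 genes (-0.78, 0.26 and -0.39).

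The sign of the *MOBP* and *MBP* values gave a different balance between the genes, which can be read within a library without scaling to depth. In Oligo, *MOBP* UMIs per *MBP* UMI were 0.570, 0.763 and 0.930 for injured animals, against 0.369 for control (exact 95% interval 0.350 to 0.388). The lowest injured interval, 0.548 to 0.593, did not reach the control interval. These intervals cover counting error only, and the injured ratios themselves ranged widely (0.754 ± 0.180, SD, n = 3). *MYRF* UMIs per *MBP* UMI were closer together, at 0.0602, 0.0687 and 0.0600 for injured animals against 0.0484 for control Oligo.

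Nearly all Oligo nuclei had an *MBP* UMI. The share was 96.3%, 93.3% and 97.4% in injured replicates 1, 2 and 3 and 97.5% (exact interval 96.4 to 98.3%) in the control library. Deeper nuclei show more genes, so shares were also computed with nuclei thinned at random to a common depth. At 1000 UMIs per nucleus, which left out 17, 82 and 45 injured and 655 control Oligo nuclei, the share with *MBP* was 89.2% ± 2.93 (SD, n = 3) for injured animals, against 96.1% (94.0 to 97.7%) for control. At 500 UMIs, which left out none, the shares were 72.2% ± 3.52 and 88.7%. Each injured animal (71.7%, 69.0% and 75.9%) was below the control library at that depth.

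The share of Oligo with an *MOBP* UMI before thinning was 87.9%, 84.2% and 93.0% for injured animals against 72.6% for control. At 1000 UMIs it was 75.8% ± 9.32 (SD, n = 3) against 75.6%, and at 500 UMIs 57.9% ± 7.96 against 52.0%. The injured animals then lay on both sides of the control value. The share with a *MYRF* UMI was 35.5% ± 6.25 against 20.8% before thinning and 17.1% ± 1.03 against 16.7% at 1000 UMIs. At 500 UMIs it was 7.79% ± 0.142 in injured and 11.3% (9.52 to 13.3%) in control Oligo. The higher *MOBP* and *MYRF* shares before thinning were thus not seen for *MYRF* at either equal depth, and for *MOBP* not beyond the spread of the animals.

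**Figure D2:**
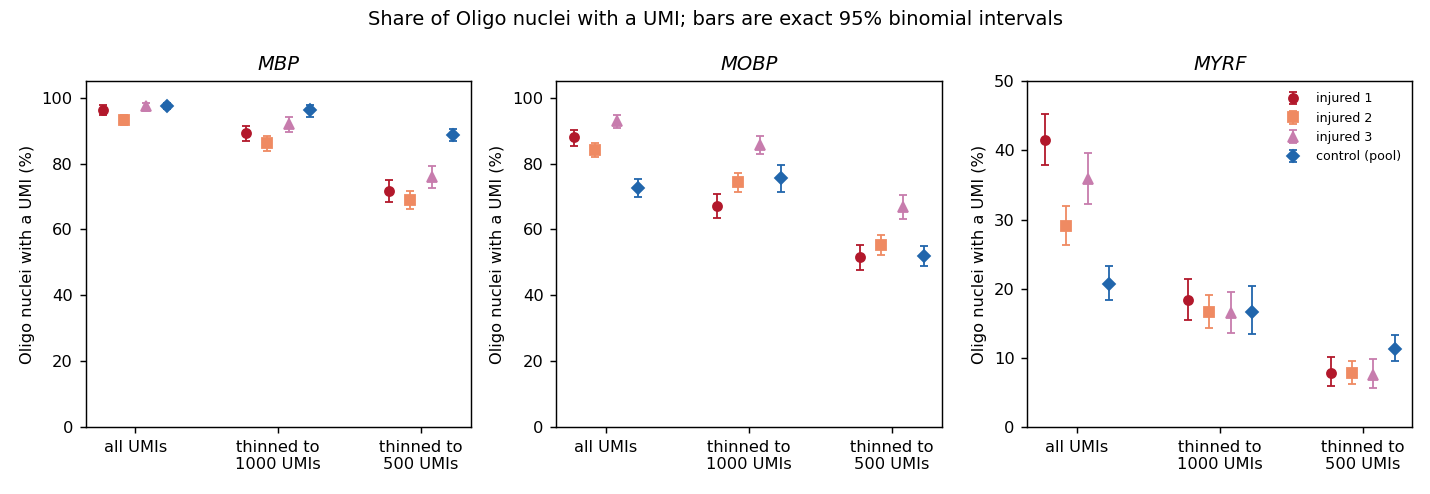
Share of Oligo nuclei with at least 1 UMI (y axis, percent) before thinning and at 1000 and 500 UMIs per nucleus (x axis), by library, with exact 95% binomial intervals. At 500 UMIs the injured animals lie below the control library for *MBP* (69.0 to 75.9% against 88.7%), around it for *MOBP*, and below it for *MYRF* (7.63 to 7.89% against 11.3%).

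The distribution within Oligo differed in the same direction. In nuclei thinned to 1000 UMIs, the median nucleus held 3, 2 and 3 *MBP* UMIs in the injured animals, against 4 in control Oligo. The highest count was 10 to 12 in the injured animals and 16 in the control library. The median *MOBP* count was 1, 1 and 2 UMIs against 1. At most 3 *MYRF* UMIs were found in any thinned nucleus of either cohort.

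Most Oligo nuclei carried more than 1 of the genes together. After thinning to 1000 UMIs, nuclei with exactly 2 of the 3 genes made up 61.0% ± 6.19 (SD, n = 3) of injured Oligo, against 65.95% of control Oligo. Those with all 3 made up 13.1% ± 1.41 against 11.99%. Nuclei without any of the 3 were 7.36%, 6.07% and 2.04% for injured animals (51, 60 and 13 nuclei) against 1.499% (7 of 467) for control. All injured shares of such nuclei were above the control share, and that of injured replicate 3 was near it.

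Within each library, Oligo nuclei with a *MYRF* UMI held more *MBP* than those without. At equal depth, *MBP* stood at 3677 against 2949 CPM in injured replicate 1, 2713 against 2444 in replicate 2, 3581 against 3263 in replicate 3 and 4949 against 4357 in the control library. Nuclei with a *MYRF* UMI numbered 78 to 164 per library. For *MOBP* the values were 1929 against 1673, 1915 against 1909, 3181 against 3004 and 1846 against 1774 CPM. The difference in level had the same sign in all 4 libraries for both genes, and for *MOBP* it was small next to the spread between animals. In the control library the share of nuclei with an *MOBP* UMI went the other way, at 73.08% with and 76.09% without *MYRF*. Nuclei of a library are not replicates, so no test was made. Only Oligo nuclei of at least 1000 UMIs were split, which left out 655 of the 1122 control Oligo nuclei. Nuclei of the small control cluster were not taken out. That cluster was lower than the large control cluster in both *MBP* (1523 against 5014 CPM) and *MYRF* (80.2 against 241 CPM). Its part in the difference was not tested.

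Injured Oligo nuclei with a UMI of *IGFBP3*, a secreted binding protein of insulin-like growth factors, numbered 57, 79 and 65 at 1000 UMIs. *MBP* stood at 2474 CPM in them and 3137 CPM in the other Oligo of injured replicate 1, at 1304 and 2592 CPM in replicate 2, and at 3138 and 3336 CPM in replicate 3. *MOBP* was also lower in nuclei with *IGFBP3* in each animal, at 1316 against 1756, 899 against 1998 and 2877 against 3051 CPM. The levels of both genes were thus lower in each animal, most in replicate 2 and least in replicate 3. The share of nuclei with an *MBP* UMI was also lower in replicates 1 and 2 (78.95% against 90.25%, and 58.23% against 88.56%), but in replicate 3 it was higher, at 95.38% against 91.61%. *MYRF* rested on 9, 10 and 16 UMIs in these nuclei and was lower in replicates 1 and 2 and higher in replicate 3.

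OPC held the next highest *MBP* level in every library, far below Oligo. *MBP* stood at 81.3, 174 and 73.2 CPM in OPC of injured replicates 1, 2 and 3 and at 150 CPM in the control library (28 UMIs). Injured replicate 2 was above the control value and the other two were below it. The log2 fold change was -0.33 (SE 0.59, 95% interval -1.70 to 1.04), with an adjusted p of 0.789. This value rested on injured replicate 2, without which it was -0.85 (SE 0.33, adjusted p = 0.0687), while it was -0.16 without replicate 1 and -0.12 without replicate 3. *MOBP* stood at 85.0, 62.0 and 96.5 CPM against 107 CPM in the control library (20 UMIs), all injured values being lower. Its log2 fold change was -0.26 (SE 0.38, 95% interval -1.14 to 0.62), with an adjusted p of 0.737, and ranged from -0.44 to -0.12 when an animal was left out.

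*MYRF* was detected in injured OPC and not in control OPC. The injured replicates held 29, 31 and 12 UMIs (17.9, 20.2 and 5.82 CPM) in 23, 25 and 11 nuclei. The control library held 0 UMIs in 171 OPC nuclei, where a floor of 3 nuclei corresponds to 1.75% and the exact 95% interval of the share reaches 2.13%. The depth of control OPC does not allow a comparison of levels, since 3 UMIs there would correspond to 16.0 CPM, above the pooled injured level of 13.8 CPM. At 500 UMIs per nucleus the injured shares were 0.352%, 0.665% and 0%. With 0 UMIs in control OPC, *MYRF* passed the filter on low counts only through the injured animals. Its test (edgeR, adjusted p = 0.373) therefore cannot decide whether injured and control OPC differed.

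In the injured animals, however, *MYRF* in OPC stood above its level in the other cell types. It reached 3.06 to 11.9% of the Oligo level of the same library in OPC, and 0.260 to 1.61% in astrocytes, microglia, endothelial cells (Endo), ExN and inhibitory neurons (InN). OPC came second to Oligo for *MYRF* in all 3 injured libraries. In the control library the other types stood at 0 to 4.41% of Oligo, the highest being astrocytes on 8 UMIs (9.25 CPM), which is above OPC of injured replicate 3 (5.82 CPM). At 1000 UMIs, 7, 8 and 6 injured OPC nuclei had a *MYRF* UMI, and these nuclei held 3, 4 and 3 *MBP* UMIs, against 19, 70 and 26 in the 272, 425 and 384 OPC nuclei without. At that depth *MYRF* had 0, 0 and 1 UMIs in the OPC nuclei with a UMI of *GFAP*, an intermediate filament of astrocytes (74, 50 and 111 nuclei), and 7, 8 and 5 UMIs in those without (205, 383 and 279 nuclei).

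Of the 3 genes, of which *MYRF* was tested only through the injured animals, 0 were called in OPC by edgeR. Of 11476 genes tested, 0.0697% were called (0.061% higher and 0.00871% lower), a share that moved widely when an animal was left out. At an unadjusted p below 0.05, 0 of the 3 passed in edgeR and in DESeq2, and DESeq2 called 0. Of all genes in OPC, 19.9% passed this limit in edgeR and 10.5% in DESeq2, which called 0.584%. Whether the injury effect differed between Oligo and OPC was tested as an interaction with library as a block, in which 0.393% of 12215 genes had an adjusted p below 0.05. The difference of log2 fold changes (Oligo minus OPC) was -0.05 (95% interval -1.33 to 1.23, adjusted p = 0.9997) for *MBP* and 0.83 (-0.04 to 1.70, adjusted p = 0.459) for *MOBP*. For *MBP* the sign reversed after thinning to 1000 UMIs (0.0223) and without injured replicate 2 (0.49). Astrocyte markers summed to 1305, 841 and 1354 CPM in injured and 1091 CPM in control OPC, where *GFAP* and *AQP4* had no UMI, and their part in the OPC results was not tested.

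**Figure D3:**
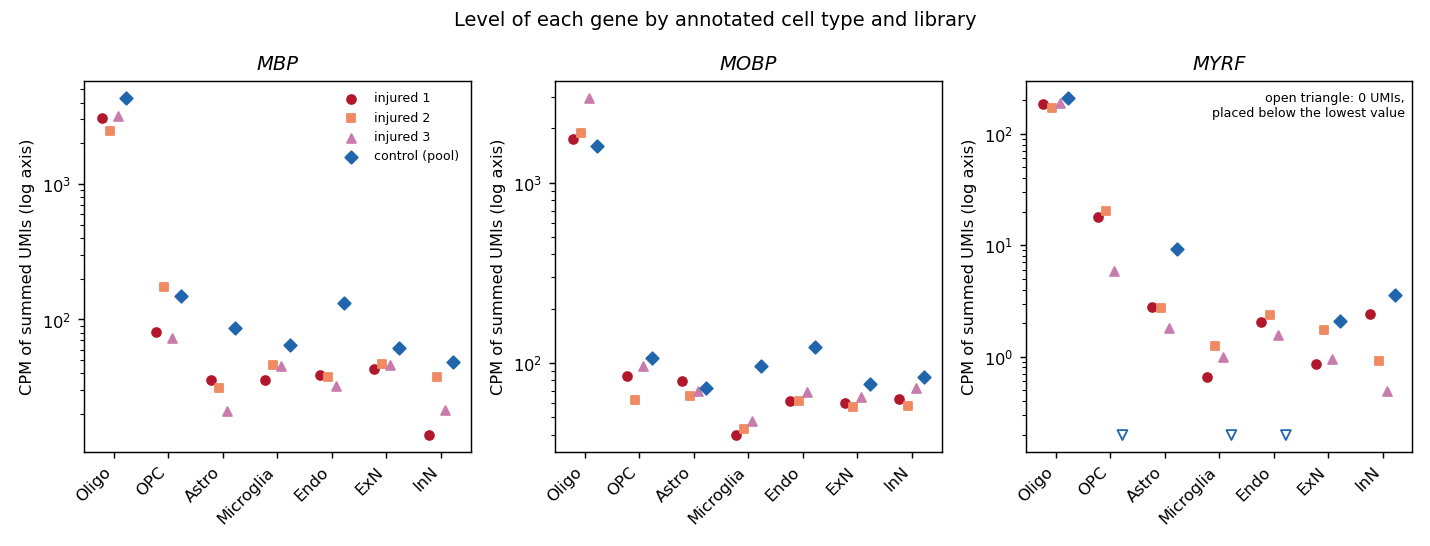
CPM of *MBP*, *MOBP* and *MYRF* (y axis, log scale) by annotated cell type (x axis) and library (colour and shape). Oligo stand above every other type for all 3 genes, OPC of the injured animals come next for *MYRF*, and open triangles mark control sums with 0 UMIs, drawn below the lowest value.

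Cells that do not make myelin also held UMIs of these genes. In astrocytes, microglia, Endo, ExN and InN of the injured animals, *MBP* stood at 0.455 to 1.90% of the Oligo level of the same library, and at 1.11 to 3.05% in the control library. *MOBP* stood at 1.61 to 4.50% in the injured animals and at 4.56 to 7.67% in the control library. The *MOBP* level of OPC (3.27 to 4.84% of Oligo in the injured animals and 6.70% in the control library) was above every other of these types in injured replicates 1 and 3, but not in injured replicate 2, where astrocytes were higher, nor in the control library, where Endo were higher. *MBP* in OPC, at 2.31 to 7.01% and 3.46%, was above the other types of its library, though in the control library Endo were close to it.

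Levels of *MBP* in these other types were lower in injured than in control sums for all 5 types. In Endo they were 38.6, 37.7 and 32.1 CPM against 132 CPM (27 UMIs), with a log2 fold change of -1.74 (SE 0.30) and an adjusted p of 0.00589. In astrocytes they were 35.97, 31.44 and 21.14 CPM against 86.7 CPM (75 UMIs), at -1.46 (SE 0.31) and an adjusted p of 0.0245. At most 6.30% of Endo and 4.46% of astrocyte nuclei of a cohort had an *MBP* UMI, so neither met the rule for a call. The control UMIs lay in 10 Endo and 26 astrocyte nuclei. Before thinning, the mean injured share of nuclei was 6.32% against 5.525% in Endo and 4.66% against 4.38% in astrocytes. At 500 UMIs it was 1.77% against 2.76% and 0.898% against 2.69%. The lower levels thus rested on few control nuclei. Of the genes tested, 0 were called by edgeR in these types, with *MYRF* below the filter on low counts in microglia and Endo and not tested there. The share of all genes called was 1.5% in astrocytes (1.12% higher, 0.378% lower), 0% in microglia, 6.18% in Endo (4.19% and 1.99%), 3.85% in ExN (2.6% and 1.25%) and 3.41% in InN (2.2% and 1.22%). An unadjusted p below 0.05 was reached by *MBP* in astrocytes, Endo and ExN, by *MOBP* in microglia and Endo and by *MYRF* in astrocytes. That limit was passed by 30.0% of all genes in astrocytes, 33.1% in Endo, 40.2% in ExN, 21.2% in microglia and 34.8% in InN. DESeq2 was not run in these types.

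For *MOBP*, astrocytes stood at 79.0, 65.3 and 69.9 CPM in the injured replicates and 72.8 CPM in the control library, with a log2 fold change of 0.08 (95% interval -0.45 to 0.61, adjusted p = 0.837). In microglia, Endo, ExN and InN all injured values were below the control value. In Oligo the sign was the opposite. The difference in injury effect between Oligo and another type was 1.35 (log2, adjusted p = 0.0783) against Endo, 1.48 (adjusted p = 0.209) against microglia, 0.75 (adjusted p = 0.272) against ExN and 0.79 (adjusted p = 0.231) against InN. Against astrocytes it was 0.46 (95% interval -0.36 to 1.27, adjusted p = 0.695). Of the 3 genes, 0 passed an adjusted p of 0.05 in the edgeR tests of Oligo against another type. *MYRF* had 0 UMIs in control OPC, microglia and Endo. Its tests against these types rested on their injured sums alone and cannot decide whether the injury effect differed. Of all genes, 0.549% passed against astrocytes, 1.51% against microglia, 4.5% against Endo, 0.815% against ExN and 0.667% against InN. An unadjusted p below 0.05 was reached by *MBP* against astrocytes and Endo, by *MOBP* against microglia, Endo, ExN and InN, and by *MYRF* against astrocytes and InN. Of all genes, 12.6% did so against astrocytes, 14.2% against microglia, 20% against Endo, 12.1% against ExN and 11.5% against InN.

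The balance of *MOBP* and *MBP* also differed between cell types of a library. *MOBP* UMIs per *MBP* UMI were 1.39, 1.21 and 1.40 in ExN of the injured replicates and 1.24 (exact interval 1.14 to 1.34) in control ExN. They were 4.51, 1.54 and 3.43 in injured and 1.73 (1.40 to 2.13) in control InN. The Oligo ratios were all below 1. Every interval in ExN and InN thus lay above that of Oligo of its own library, and the InN ratio was above the ExN ratio in each of the 4 libraries. Ratios above that of Oligo were not particular to neurons. Injured astrocytes stood at 2.195, 2.076 and 3.309 (control 0.84) and Endo at 1.585, 1.627 and 2.161 (control 0.926). Microglia stood at 1.116, 0.937 and 1.044 (control 1.5, on 8 *MBP* UMIs), with an interval that overlapped that of Oligo in injured replicate 3.

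Between the neuron classes, the share of nuclei differed for *MBP* more than for *MOBP*. At 1000 UMIs, *MBP* was found in 4.10%, 4.88% and 4.80% of injured ExN and 5.07% of control ExN, and in 2.05%, 3.03% and 2.46% of injured and 3.26% of control InN. ExN were higher in all 4 libraries, with intervals that did not overlap in injured replicates 2 and 3. *MOBP* was found in 6.36%, 5.78% and 6.67% of injured and 7.51% of control ExN, and in 7.95%, 6.43%, 6.09% and 7.71% of InN, with overlapping intervals in every library. As background, the *MBP* locus also encodes the Golli proteins, which are known from neurons and immune cells, and the tables hold 1 count per gene with no split by transcript.

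**Figure D4:**
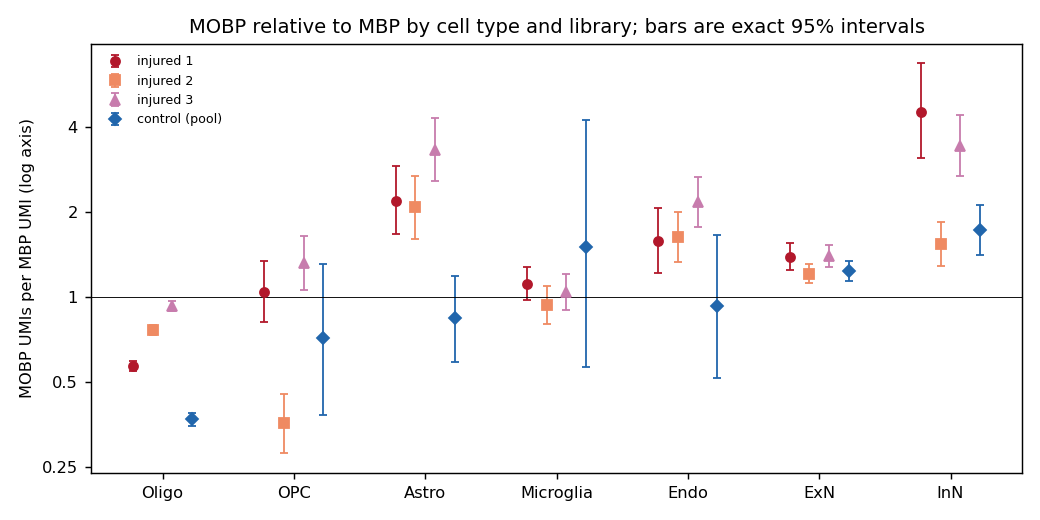
*MOBP* UMIs per *MBP* UMI (y axis, log scale) by cell type (x axis) and library, with exact 95% intervals of the counts. In Oligo the injured animals (0.570 to 0.930) lie above the control library (0.369), and in ExN and InN all libraries lie above 1.

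The genes around the members were described by lists of known function, with no set test. Of the 22 genes listed as myelin proteins, 19 were tested in Oligo. Of these 1 was called higher (0.619% of all genes were called higher) and 0 lower (0.155%), and the median log2 fold change was 0.28, against 0.02 over all genes. At an unadjusted p below 0.05, 10 of the 19 passed in edgeR (30.8% of all genes) and 10 in DESeq2 (16.6%), and at an adjusted p below 0.05 in edgeR 7 were higher (5.61% of all genes) and 1 lower (4.14%). *CRYAB*, a small heat shock protein found in myelin, stood at 217, 202 and 169 CPM in the injured replicates and 54.0 CPM in the control library. It rose by 1.96 on the log2 scale (SE 0.21, adjusted p = 0.0048). DESeq2 called 3 genes of the list and 1.75% of all genes. Of the 19 genes, 6 had a log2 fold change below 0. The lowest, named after its value was seen, was *CNP*, a phosphodiesterase of myelin, at 18.0, 17.4 and 22 CPM against 46.2 CPM (log2 -1.18, adjusted p = 0.0416).

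Of 18 genes of myelin lipid synthesis, 16 were tested in Oligo, 1 was called higher (0.619% of all genes) and 0 lower (0.155%), and the median log2 fold change was 0.54, with 14 of the 16 above 0. At an unadjusted p below 0.05, 8 passed in edgeR (30.8% of all genes) and 6 in DESeq2 (16.6%). *SCD*, the desaturase that makes monounsaturated fatty acids, stood at 283, 233 and 394 CPM in the injured replicates and 31.3 CPM in the control library. It rose by 3.38 on the log2 scale (SE 0.40, adjusted p = 0.00652). *ELOVL1*, which elongates very long fatty acids, stood at 64.1, 48.4 and 72.5 CPM against 18.8 CPM (log2 1.81, adjusted p = 0.0265). *FASN*, the fatty acid synthase, stood at 40.4, 38.4 and 39.8 CPM against 20.4 CPM (log2 1.06, adjusted p = 0.0515). In DESeq2 also 1 gene of this list was called, and 1.75% of all genes.

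Among 11 tested transcription regulators of the oligodendrocyte lineage, 0 were called by edgeR, with a median log2 fold change of 0.00 that was -0.27 with the largest Oligo cluster alone. At an unadjusted p below 0.05, 2 passed in edgeR (30.8% of all genes) and 2 in DESeq2 (16.6%), and DESeq2 called 0. *SOX10*, a lineage factor that acts with *MYRF* on myelin genes, stood at 99.2, 91.4 and 92.8 CPM in the injured replicates and 162 CPM in the control library (log2 -0.68, SE 0.17, adjusted p = 0.0469). With the largest Oligo cluster alone, *SOX10* fell by 1.002 on the log2 scale and passed the limit (adjusted p = 0.00945). *NKX6-2*, a homeobox factor of myelinating cells, stood at 127, 74.5 and 110 CPM against 44.6 CPM (log2 1.32, adjusted p = 0.0553). *CRYAB* and *SCD* were also called with the largest cluster alone, and besides *SOX10* no other gene of the 6 lists was. The medians of the other lists in that cluster were 0.45 for myelin proteins, 0.67 for the 15 lipid synthesis genes tested there (0.74 for these with all nuclei), -0.05 for premyelinating and committed cells, 0.97 for repressors and 0.12 for RNA binding and transport, against 0.03 over all genes. The regulators and the premyelinating list thus changed sign with this choice.

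The other lists held 0 called genes in Oligo by edgeR, and 0 by DESeq2. Their counts at an unadjusted p below 0.05 stand beside the 30.8% of all genes in edgeR and 16.6% in DESeq2, and nothing is read from counts in lists this short. Of 9 tested genes of premyelinating and committed cells, 1 had an unadjusted p below 0.05 (0 in DESeq2), and the median log2 fold change was 0.13. *FYN*, a kinase of early myelination, was at 0.56 (adjusted p = 0.0983) and *GPR17*, a receptor of committed precursors, at 1.49 (adjusted p = 0.285) with a UMI in at most 1.06% of the nuclei of a cohort. Of 5 tested repressors of differentiation, 3 passed unadjusted (1 in DESeq2), including *ID2* at 2.29 (adjusted p = 0.0552) and *BMPR1A* at -0.42 (adjusted p = 0.135). Of 8 genes that bind or carry myelin mRNA, 3 passed unadjusted (1 in DESeq2), including *HNRNPK* at 1.04 (adjusted p = 0.0225) and *KIF5B*, a motor subunit, at 0.57 (adjusted p = 0.0903). The remaining gene of these 3, *KIF1B*, named after its value was seen, was lower at -0.42.

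In OPC, 0 genes of the 6 lists were called by edgeR, with 2 to 5 genes per list at an unadjusted p below 0.05 (1 to 3 in DESeq2), where 19.9% of all genes passed it (10.5% in DESeq2). DESeq2 called 1 gene of the myelin protein list in OPC and 0 of the others, and 0.584% of all genes. Some of these genes, among them *EGR1*, *LSS* and *TMEM63A* (chosen after their values were seen), had 0 UMIs in control OPC. They were tested only through the injured animals. The counts above include them, so nothing is read from these counts, and no medians are given for OPC.

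**Figure D5:**
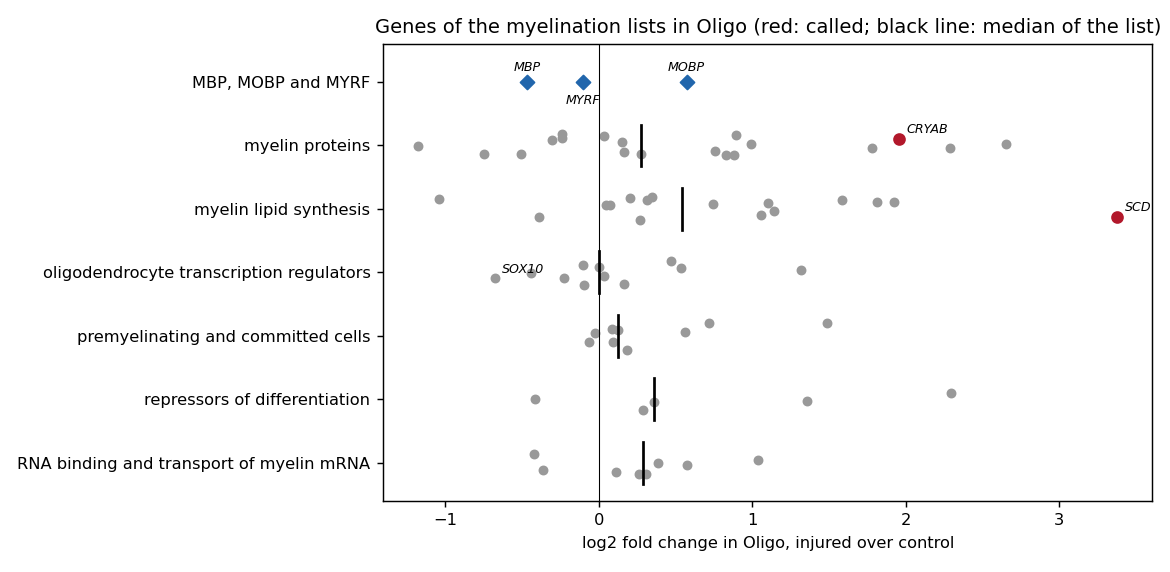
Fitted log2 fold change in Oligo (x axis, injured over control) of each tested gene of the 6 lists and of the 3 members (rows), with called genes in red and the median of a list as a black line. *CRYAB* (1.96) and *SCD* (3.38) are called, and 13 of 19 myelin proteins lie to the right of 0, while *MBP* (-0.47) lies to the left with 6 of the myelin proteins.

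The genes whose pattern was most like the members were sought over 28 sums (7 cell types in 4 libraries) and 14663 genes, by Pearson's r of log2(CPM + 1). These sums share libraries and differ mostly between Oligo and the rest, so r is given as a description. The mean of the 3 members was followed most closely by *MAL*, a proteolipid of myelin (r = 0.974), then *CCP110* (0.956), *SECISBP2L* (0.9503), *SLC5A11* (0.948), *ZDHHC20* (0.946), *TF* (0.946), *CTNNA3* (0.944, listed by its Ensembl identifier), *C9orf85* (0.940), *ST18* (0.939) and *KIF6* (0.938). None of these 10 was called in Oligo, and *SLC5A11*, a transporter of inositol, was nearest to it at a log2 fold change of -0.88 (adjusted p = 0.0215).

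*MYRF* alone was followed most closely by *TMEM125* (r = 0.944), *CCP110* (0.914), *MAL* (0.914), an unnamed Ensembl gene (0.913) and *LLCFC1* (0.898). *MBP* and *MOBP* came 20th and 22nd, at 0.873 and 0.869, while *MBP* and *MOBP* followed each other at 0.946. Between cohorts *TMEM125* had a log2 fold change of 1.61 (adjusted p = 0.0165) in Oligo, where that of *MYRF* was -0.10.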

How the data were processed

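Nuclei of 3 injured animals (1 library each) and of 3 control animals pooled in 1 library were used as deposited. According to their methods, the authors counted UMIs with Cell Ranger 3.1.0 on the calJac3 genome with Ensembl gene models, removed doublets with Scrublet (injured) or filtered nuclei by gene number in Seurat (control), and named clusters from marker genes. The tables deposited by the authors give unnormalized UMI counts per nucleus for the genes they list (32323 in the injured and 16383 in the control table), with the library, the cell type and the cluster of each nucleus. No further doublet caller was run.

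The counts of each cell type were added up within a library and compared over genes listed in both tables with edgeR 4.0.16 (TMM, filterByExpr, glmQLFit, glmQLFTest) in R 4.3.3, with Benjamini-Hochberg adjustment. The spread came from the injured libraries and was assumed for the control library. CPM used the total over all genes. Differences in injury effect between cell types were interactions with library as a block. Shares carry exact (Clopper-Pearson) 95% intervals, which cover counting error only, and 3 UMIs served as floor where a count was 0. Nuclei were thinned to 1000 or 500 UMIs. Other steps used Python 3.11.15, numpy 2.4.6, pandas 2.3.3 and scipy 1.17.1.

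On simulated counts with 200 changed genes, the Oligo comparison (11378 genes) called 72.0% of 4-fold and 15.6% of 2-fold changes. The OPC comparison (11438 genes) called 33.7% and 1.04%, and the interaction (12049 genes) 24.0% and 3.06%. The simulation gave all genes the same spread and applied no rule on the share of nuclei. The interaction was counted at an adjusted p below 0.05. These rates need not hold for the real genes, whose spread differs.

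The members and lists were chosen with earlier results of these data known. From each list the genes called in Oligo with 1 direction in all animals were named (up to 4), or, with fewer than 2 called, these and the 2 of lowest p. Some genes that this rule names are not reported here. Alternatives were library size scaling, RLE factors, no filter on low counts, DESeq2 1.42.0, thinning, nuclei with at most 2500 genes, an adjusted p limit of 0.05, no block and leaving out each injured animal. The largest Oligo cluster of each cohort alone was added after the data were seen.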

Additional observations from a re-analysis of the deposited data

How the results depend on the processing

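No member was called in Oligo or OPC under any alternative, and in Oligo the 3 genes kept their sign under all. No paired analysis was possible because the cohorts were different animals and the control animals shared 1 library. The library block of the Oligo against OPC test changed no call (*MBP* -0.13, *MOBP* 0.84 with no replicate block). The value for *MBP* in OPC reversed to 0.18 with nuclei of at most 2500 genes. The *MBP* difference between Oligo and OPC reversed to 0.0223 after thinning and to 0.49 without injured replicate 2, with a range of -0.36 to 0.49 when each animal was left out. The cause was not tested.

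Counts of called genes moved more. In Oligo, 90 genes were called, and 204 with no filter, 204 in DESeq2, 136 with at most 2500 genes, 502 at an adjusted p below 0.05, 176 with the largest cluster alone and 48 (without injured replicate 1) to 195 (without replicate 2) when an animal was left out. In OPC, 8 were called, and 0 with library size alone, 40 with no filter, 67 in DESeq2, 16 thinned, 25 with at most 2500 genes, 136 at the wider limit and 0 (without injured replicate 1) to 820 (without replicate 2) when an animal was left out, with 293 without replicate 3. At library size alone 0 genes were called in OPC although 2273 had an unadjusted p below 0.05, and the median of all genes there moved from 0.17 to 0.04 (log2).

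Differences in the share of nuclei with a UMI (injured minus control, percentage points) varied with depth, and shallower nuclei were left out at 1000 UMIs. For Oligo at 1000 and 500 UMIs, *MBP* moved from -1.85 to -7.00 and -16.5, *MOBP* from 15.7 to 0.161 and 5.98, and *MYRF* from 14.7 to 0.434 and -3.53. For OPC, *MBP* moved from 8.76 to -3.93 and -1.25 (5.69 with at most 2500 genes), *MOBP* from 14.9 to -3.99 and -2.78, and *MYRF* from 5.46 to 1.97 and 0.339. *MYRF* in thinned OPC had too few UMIs to be tested, its DESeq2 adjusted p was not given, and 54 further settings for *MOG* and *MAG*, which are not listed, were not run.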
